A study of Homo sapiens with 12 samples.

Results

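The enzymes that take glucose into the first committed steps of glycolysis were followed here: 3 hexokinases (HK1, HK2 and HKDC1), 3 phosphofructokinases (PFKL, PFKM and PFKP), 3 enzymes of the PFKFB family (PFKFB2, PFKFB3 and PFKFB4), and TIGAR. These 10 genes were chosen by symbol, with earlier results of these data known, from the 28278 rows of a bulk RNA-seq count table. All 10 passed the filter on low counts. The libraries were labelled as OVCAR3, known as a line from high-grade serous ovarian cancer, and as CCL218, known as a line from colorectal adenocarcinoma, and the names OVCAR3 and CCL218 stand below for the libraries so labelled. Several markers went against the label OVCAR3, as given below. HCQ-evolved cells of each line had gone through 15 pulse-chases of 48 h with hydroxychloroquine (HCQ), an antimalarial drug that blocks lysosomal degradation and so autophagy, followed by 7 days in drug-free medium. Control cells were passaged without HCQ, and the labels give passage 19 for them and passage 15 for HCQ-evolved cells. The cells of each of the 4 groups grew in the wells of one plate and were combined by plate position into a left (L), a middle (M) and a right (R) pool, so that 12 libraries were sequenced. P-values thus measure the spread between pools of a plate, and treatment, plate and passage number cannot be told apart.

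Hexokinases trap glucose in the cell as glucose 6-phosphate. After isomerisation, phosphofructokinase adds a second phosphate to give fructose 1,6-bisphosphate, the step at which flux through glycolysis is strongly controlled. PFKFB enzymes make and break fructose 2,6-bisphosphate, the most potent allosteric activator of phosphofructokinase, and TIGAR, a target of p53, has fructose-2,6-bisphosphatase activity. In cancer cells, HK2, PFKP, PFKFB3 and PFKFB4 are well known as genes that respond to hypoxia or to oncogenic signals.

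After HCQ evolution, PFKFB4, PFKFB3, PFKP, HK2 and PFKL had higher mean levels in both lines, whereas HK1 moved less and PFKM and TIGAR stayed near their control levels. In CCL218, these 5 genes were called higher and 0 of the 10 genes was called lower by the quasi-likelihood test of edgeR at an adjusted p under 0.05. Log2 fold changes of single genes are given below ± their standard error. Of all 12241 genes tested in CCL218, 3.82% were called higher and 2.64% lower. In OVCAR3, PFKFB4 alone was called higher and 0 of 10 was called lower, against 0.647% and 1.21% of the 12204 genes tested there. At an unadjusted p under 0.05, 5 of the 10 genes were higher in OVCAR3 (8.38% of all genes) and 1, HKDC1, was lower (7.87%). The corresponding counts in CCL218 were 5 higher (12.5%) and 0 lower (12.7%). The median log2 fold change of the 10 genes was 0.61 in OVCAR3 and 0.63 in CCL218, while that of all genes tested was 0.016 and -0.017. Because the 10 genes were chosen with earlier results known, their contrast with all genes is a description and not an independent test.

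Counting pools gave a similar split of the genes. Every HCQ-evolved pool was above every control pool for 6 of the 10 genes in OVCAR3 (14.5% of all genes) and for 6 in CCL218 (19.8%). These were HK1, HK2, PFKL, PFKP, PFKFB3 and PFKFB4 in each line. All 3 HCQ-evolved pools lay below the controls for HKDC1 and PFKFB2 in OVCAR3 (11.4%), and for 0 of 10 genes in CCL218 (16.3%).

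**Figure D1:**
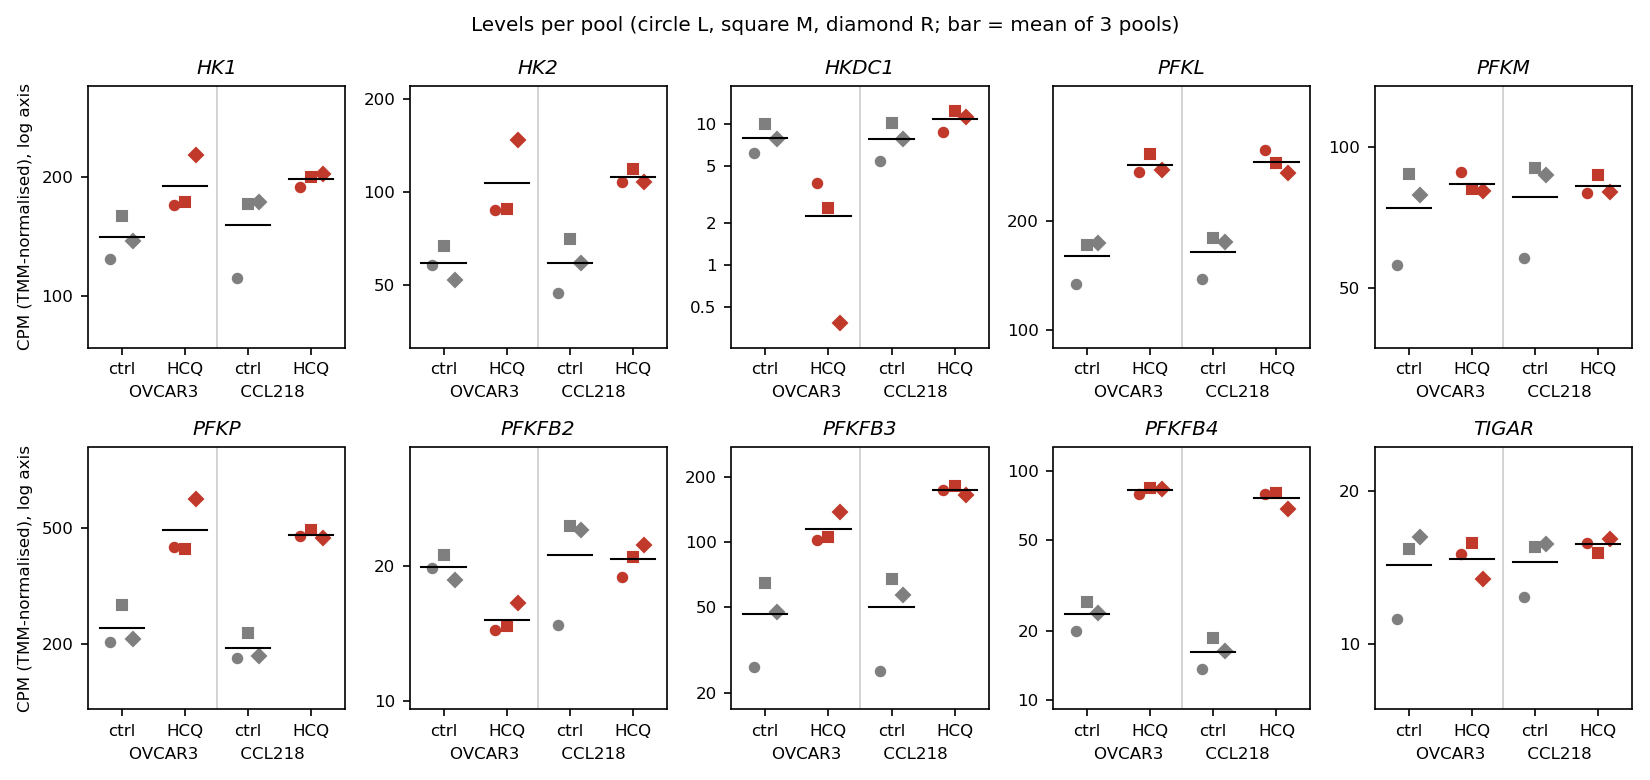
Level of each of the 10 genes in every pool, in CPM (counts scaled by library size) after TMM normalisation on a log axis, with control pools in grey, HCQ-evolved pools in red and a bar at the mean of 3 pools. The mean of PFKFB4 is higher after evolution in both lines (from 23.7 to 82.6 CPM in OVCAR3 and from 16.2 to 76.0 CPM in CCL218), and HKDC1 is lower after evolution in OVCAR3, with pool R at 0.389 CPM.

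The libraries held 31147822 to 59965861 counts each, and the lowest count of any of the 10 genes in any pool was 23, for HKDC1. Libraries differed in how counts depended on transcript length. The rank correlation across genes between length and how far a pool departed from its cell line's 6 libraries ran from -0.45 (control CCL218 L) to 0.513 (HCQ-evolved OVCAR3 R), with both signs within each group. Control pool L held the lowest of the 3 control values for 8 of the 10 genes in OVCAR3 and for 10 of 10 in CCL218. The share of all genes lowest in that pool is not reported here, so this is not shown to be particular to these genes. Of 9 ovarian markers, 5 reached 1 CPM in any pool, while ESR1, SOX17, EMX2 and CDH6 did not, and the list summed to 42.6 to 67.0 CPM in libraries labelled OVCAR3 and 63.1 to 145 CPM in those labelled CCL218. Of 9 colorectal markers, 7 reached 1 CPM, CDX1 and KRT20 did not, and the list summed to 909.9 to 1074 CPM in control and 226 to 654 CPM in HCQ-evolved OVCAR3, against 1109 to 1566 and 1171 to 1229.5 CPM in CCL218. MUC16 was at 13 to 50.6 CPM in OVCAR3 against 3.67 to 14 CPM in CCL218, and MSLN at 2.23 to 17.5 against 46.6 to 129 CPM. PAX8 (7.33 to 14.2 against 6.42 to 11 CPM), FOLR1 (2.03 to 5.82 against 1.61 to 3.25) and WT1 (0.0987 to 2.38 against 0.193 to 1.41) overlapped. MSLN made up most of the ovarian sum in CCL218, and LGALS4 most of the colorectal sum in every group. Libraries labelled OVCAR3 thus lacked several defining ovarian markers, expressed others and carried intestinal ones. HCQ-evolved OVCAR3 pool R stood apart with the lowest colorectal sum. Comparisons between lines are therefore comparisons between libraries so labelled. Agreement of both lines, and tests over both lines, are likewise not shown to join an ovarian with a colorectal line. Of 9 markers of fibroblasts, leukocytes and endothelium, 3 reached 1 CPM, and the list summed to 16.9 to 22.5 CPM in control and 31.0 to 44.8 CPM in HCQ-evolved OVCAR3, and to 15.1 to 17.1 and 51.5 to 56.8 CPM in CCL218. Most of that sum was CD68, which also marks lysosomes, while the leukocyte genes PTPRC and CD3E stayed under 1 CPM. In pools of this kind, fewer cells that express a gene and less RNA per cell cannot be told apart.

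The sequences before the start sites of the 5 genes called in CCL218 are shown first, because these genes moved together and several are known to respond to hypoxia. Each is the 250 bases upstream of the gene's start in RefSeq on GRCh38.p14, read 5′ to 3′ on the gene's own strand. Capitals mark ACGTG or GCGTG, the core of the hypoxia response element, or their reverse complements CACGT and CACGC. HK2 lies at chr2:74833877-74834126 (plus strand), PFKL at chr21:44299803-44300052 (plus), PFKP at chr10:3067720-3067969 (plus), PFKFB3 at chr10:6144671-6144920 (plus) and PFKFB4 at chr3:48556804-48557053 (minus).
HK2: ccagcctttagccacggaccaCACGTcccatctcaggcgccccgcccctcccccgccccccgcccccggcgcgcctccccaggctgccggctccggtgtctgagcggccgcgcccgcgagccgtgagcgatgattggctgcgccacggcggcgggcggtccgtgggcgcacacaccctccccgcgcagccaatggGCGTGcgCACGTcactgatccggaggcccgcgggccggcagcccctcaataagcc
PFKL: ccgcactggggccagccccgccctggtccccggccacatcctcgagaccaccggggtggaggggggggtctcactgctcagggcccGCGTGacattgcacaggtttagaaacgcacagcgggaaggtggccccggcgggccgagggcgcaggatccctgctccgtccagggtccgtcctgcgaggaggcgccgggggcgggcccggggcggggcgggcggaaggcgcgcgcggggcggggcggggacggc
PFKP: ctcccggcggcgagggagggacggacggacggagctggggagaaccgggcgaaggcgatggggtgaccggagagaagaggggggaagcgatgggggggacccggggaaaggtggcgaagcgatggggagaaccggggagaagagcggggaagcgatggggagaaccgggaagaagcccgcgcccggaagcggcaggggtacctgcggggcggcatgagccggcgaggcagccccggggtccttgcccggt
PFKFB3: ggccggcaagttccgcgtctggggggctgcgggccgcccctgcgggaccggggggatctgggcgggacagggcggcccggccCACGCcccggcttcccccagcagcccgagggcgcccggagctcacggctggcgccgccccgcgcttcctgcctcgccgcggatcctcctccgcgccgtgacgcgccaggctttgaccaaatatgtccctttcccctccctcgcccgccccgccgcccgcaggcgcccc
PFKFB4: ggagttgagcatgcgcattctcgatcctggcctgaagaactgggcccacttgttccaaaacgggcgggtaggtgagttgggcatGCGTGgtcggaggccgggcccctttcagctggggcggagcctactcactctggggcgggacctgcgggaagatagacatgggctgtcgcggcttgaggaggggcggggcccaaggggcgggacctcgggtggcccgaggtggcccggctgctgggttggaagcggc

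The HK2 window held 3 matches, those of PFKL, PFKFB3 and PFKFB4 held 1 each, and that of PFKP held 0. TIGAR, which was not called, held 1 match, and HK1, HKDC1 and PFKM held 0. Of 9 windows that were matched by symbol, 5 thus held a match (55.6%), against 43.2% of 35116 RefSeq promoter windows of the same length, in which ACGTG occurred in 18.5% and GCGTG in 32.2%. Windows with 3 or more matches made up 7.76%. ACGTG is also part of the E-box CACGTG, which occurred in 0 of the 9 windows. PFKFB2 was not matched. Each gene is represented by one start site, which may not be the one used in these cells, and a match of letters describes the sequence, not a bound site.

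HK2, the inducible hexokinase that binds mitochondria and is abundant in many tumours, rose in CCL218. Its control pools there were at 47.2 (L), 70.5 (M) and 59.0 CPM (R), and its HCQ-evolved pools at 108, 119 and 108 CPM. The groups did not overlap, and the log2 fold change was 0.90 ± 0.16 (adjusted p = 0.0222, edgeR), a 1.87-fold higher level with a 95% interval of 1.44 to 2.42. In OVCAR3 the control pools were at 58.2, 67.1 and 52.2 CPM and the HCQ-evolved pools at 87.6, 88.2 and 147 CPM. Here too every evolved pool was above every control, with pool R well above the other two, but the log2 fold change of 0.84 ± 0.26 had an adjusted p of 0.158. Without HCQ-evolved pool R the log2 fold change in OVCAR3 was 0.54, with the same adjusted p of 0.158. HK2 lies on chromosome 2 (74834127 to 74893359, plus strand, GENCODE 44 on hg38) and has a processed pseudogene that could share reads with it.

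HK1, the hexokinase that most tissues use, was the most abundant hexokinase in all 4 groups. Its control and HCQ-evolved pools were at 124, 159.9 and 138 CPM and at 169.9, 173 and 227 CPM in OVCAR3. In CCL218 they were at 111, 171 and 173 CPM and at 189, 200 and 204 CPM. Pools did not overlap in either line, but the gaps were narrow beside the spread of the controls. The log2 fold changes of 0.41 (adjusted p = 0.362) and 0.36 (adjusted p = 0.251) were not called by edgeR.

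HKDC1, a hexokinase whose gene ends 2.43 kb before HK1 on chromosome 10 (69220332 to 69267552, plus strand), was the one hexokinase whose direction differed between lines. In OVCAR3 it was at 6.22, 9.98 and 7.78 CPM in control pools and at 3.81, 2.54 and 0.389 CPM in HCQ-evolved pools. All evolved pools were lower, and pool R was lowest by far. Its log2 fold change was -1.86 ± 0.67 (95% interval -3.42 to -0.30, adjusted p = 0.223). Without HCQ-evolved pool R the log2 fold change was -1.36 (adjusted p = 0.0397), and DESeq2 gave an adjusted p of 0.0392 on all pools.

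In CCL218, HKDC1 was at 5.44, 10.1 and 7.88 CPM in control pools and at 8.75, 12.4 and 11.3 CPM in HCQ-evolved pools, which overlapped. The log2 fold change there was 0.45 ± 0.24 (adjusted p = 0.291). The difference between the lines was 2.32 ± 0.78 on the log2 scale (unadjusted p = 0.0120, adjusted p = 0.279, edgeR) and was not called. Of the 9 colorectal markers, some but not all were lowest in the same pool. CDX2 was at 8.33 (L), 9.85 (M) and 0.812 CPM (R) in HCQ-evolved OVCAR3 against 8.61 to 13.1 CPM in its controls. LGALS4 was at 495, 462 and 135 CPM against 639 to 822 CPM, and VIL1 at 135, 119.7 and 79.4 CPM against 197 to 288 CPM. Pool R was thus the lowest for all 3, and LGALS4 and VIL1 were below the controls in pools L and M as well. FABP1 was low throughout, at 0.493, 0.821 and 0.135 CPM against 1.28 to 2.52 CPM. GPA33 was above its controls in pools L and M and below them in R (7.28, 6.82 and 1.74 CPM against 2.74 to 3.41), and CDH17 likewise (4.30, 4.57 and 1.72 CPM against 2.61 to 3.74). CEACAM5 went the other way, at 3.95, 3.75 and 8.01 CPM against 4.34 to 6.11 CPM. Their part in the HKDC1 result was not tested.

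PFKP, the platelet-type phosphofructokinase, had the highest mean level per unit of length of the 10 genes in every group, although its pools overlapped those of HK1 in control CCL218. It was at 180.1, 218 and 183 CPM in control and at 468, 492 and 460.2 CPM in HCQ-evolved CCL218. The groups stood far apart, with a log2 fold change of 1.26 ± 0.12 (adjusted p = 0.00294, edgeR), or 2.40-fold (95% interval 1.97 to 2.94). In OVCAR3 the control pools were at 203, 273 and 208 CPM and the evolved pools at 431, 422 and 627 CPM. No pools overlapped, with the log2 fold change at 1.09 ± 0.24 (adjusted p = 0.0677), short of the threshold. PFKP lies on chromosome 10 (3066333 to 3137718, plus strand), 3.01 Mb before PFKFB3 on the same strand.

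PFKL, the liver-type subunit (chromosome 21, 44300051 to 44327376, plus strand), had nearly the same log2 fold change in both lines and was called in CCL218. CCL218 control pools were at 138, 179 and 175 CPM and evolved pools at 314, 289 and 271 CPM, a log2 fold change of 0.80 ± 0.14 (adjusted p = 0.0196, edgeR). OVCAR3 control pools were at 134, 171 and 174 CPM and evolved pools at 273, 305 and 277 CPM, a log2 fold change of 0.81 ± 0.17 (adjusted p = 0.0619). Evolved and control pools did not overlap in either line.

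PFKM, the muscle-type subunit, showed no such gap. Its pools were at 55.8, 87.5 and 79.1 CPM in control and 88.3, 81.3 and 80.4 CPM in HCQ-evolved OVCAR3. In CCL218 they were at 57.9, 90.2 and 87.2 CPM and 79.6, 87.3 and 80.3 CPM. The groups overlapped in both lines, and log2 fold changes were 0.15 (95% interval -0.34 to 0.64) and 0.05 (-0.36 to 0.46). PFKM shares 516 exonic bases with SENP1 on the opposite strand, which was at 17.9 to 33.5 CPM.

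PFKFB4, an enzyme that can both make and hydrolyse fructose 2,6-bisphosphate (chromosome 3, 48517684 to 48562015, minus strand), had the highest log2 fold change of the 10 genes in each line. In OVCAR3 the control pools were at 20, 26.9 and 24.1 CPM and the evolved pools at 79.6, 84.5 and 83.7 CPM. The evolved pools were close to each other and far above all controls, with a log2 fold change of 1.78 ± 0.19 (adjusted p = 0.0101, edgeR), or 3.44-fold (95% interval 2.54 to 4.66). In CCL218 the control pools were at 13.7, 18.6 and 16.3 CPM and the evolved pools at 79.4, 80.0 and 68.6 CPM, a log2 fold change of 2.21 ± 0.16 (adjusted p = 0.00103), or 4.62-fold (95% interval 3.59 to 5.94). The change in CCL218 exceeded that in OVCAR3 by 0.44 (95% interval -0.021 to 0.91, adjusted p = 0.587), which was not called. The OVCAR3 call was lost without control pool L (log2 fold change 1.67, adjusted p = 0.101) or without control pool R (1.78, adjusted p = 0.1). UCN2, which shares 298 exonic bases with PFKFB4 on the same strand, did not exceed 0.0493 CPM.

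PFKFB3, the family member with the strongest bias towards the kinase reaction (chromosome 10, 6144934 to 6254644, plus strand), was next. CCL218 control pools were at 25.4, 67.4 and 57.2 CPM and evolved pools at 174, 182 and 164 CPM. The log2 fold change was 1.78 ± 0.32 (adjusted p = 0.0249, edgeR), or 3.42-fold with a wide 95% interval of 2.02 to 5.81, since control pool L lay far below the other controls. OVCAR3 had the same low control pool L, with controls at 26.4, 65.0 and 47.5 CPM and evolved pools at 102, 106 and 137 CPM. Its log2 fold change was 1.29 ± 0.33 (adjusted p = 0.104). Without control pool L the values were 1.0 in OVCAR3 (adjusted p = 0.244) and 1.46 in CCL218 (adjusted p = 1.52e-05).

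PFKFB2, the heart-type family member, did not follow its relatives. It was at 19.8, 21.2 and 18.7 CPM in control and 14.4, 14.7 and 16.6 CPM in HCQ-evolved OVCAR3. Every evolved pool was below the controls, yet the log2 fold change of -0.40 (95% interval -0.81 to 0.0089, adjusted p = 0.318) was not called. In CCL218 the pools overlapped, at 14.8, 24.6 and 24.1 CPM in control and 18.9, 21.0 and 22.3 CPM after evolution, with a log2 fold change of -0.049 (95% interval -0.53 to 0.43). PFKFB2 shares 315 exonic bases with YOD1 on the opposite strand, which was at 12.4 to 21.4 CPM.

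TIGAR, which opposes PFKFB kinases by hydrolysing fructose 2,6-bisphosphate, stayed between 11.2 and 16.2 CPM in all 12 pools. Its control pools were at 11.2, 15.4 and 16.2 CPM in OVCAR3 and at 12.4, 15.5 and 15.7 CPM in CCL218. After evolution they were at 15.0, 15.8 and 13.4 CPM and at 15.8, 15.1 and 16.1 CPM. The groups overlapped, and the log2 fold changes were 0.019 (95% interval -0.46 to 0.49) in OVCAR3 and 0.088 (-0.23 to 0.41) in CCL218.

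**Figure D2:**
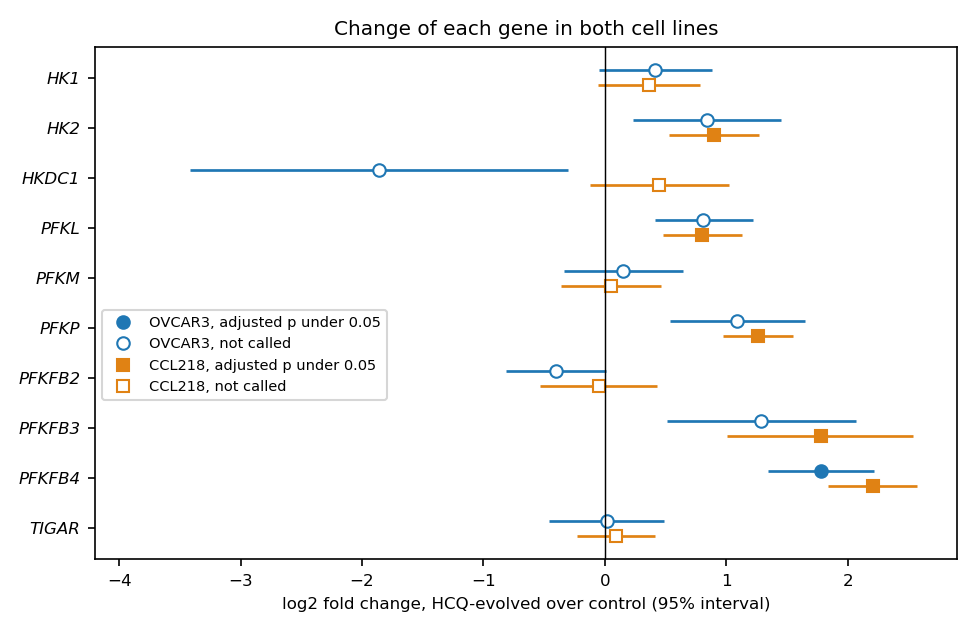
Log2 fold change of each gene between HCQ-evolved and control pools with its 95% interval, OVCAR3 as blue circles and CCL218 as orange squares, filled where the adjusted p of edgeR was under 0.05. In CCL218, 5 genes are filled, and in OVCAR3 the filled point is PFKFB4 at 1.78, while HKDC1 at -1.86 has the widest interval.

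Whether any of these changes differed between the lines was tested as an interaction. It was called for 0 of 10 genes by edgeR, against 0.690% of 12613 genes higher in CCL218 and 0.182% lower. One gene, HKDC1, had an unadjusted p under 0.05, against 5.41% of all genes in that direction, and DESeq2 called 0 of 10. The 95% intervals of the difference were -0.59 to 0.75 for HK2, -0.43 to 0.44 for PFKL, -0.36 to 0.75 for PFKP and -0.57 to 1.57 for PFKFB3, so that calls present in CCL218 and absent in OVCAR3 are not shown to differ.

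The starting levels of the lines were compared in the control pools. By edgeR, 0 of 10 genes were called between control CCL218 and control OVCAR3, against 0.949% of all genes higher in CCL218 and 1.10% lower. At an unadjusted p under 0.05 there was 1 gene (6.52% of all genes in that direction), and DESeq2 called 0. That gene was PFKFB4, whose control pools did not overlap (8.68% of all genes lay apart in that direction), with a log2 difference of -0.55 ± 0.19 (adjusted p = 0.271). Control pools of the same plate position deviated together, and with plate position as a block the difference was -0.56 (adjusted p = 0.00200), in a fit that called 17.9% of all genes lower.

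Per unit of length, the order of the 10 genes changed most in the middle ranks. Levels are given here as RPKM, counts scaled by merged exon length as well as by depth. In control OVCAR3, PFKP led with 29.3 ± 5.04 RPKM (mean and SD, n = 3), and its pools did not overlap those of HK1 (20.4 ± 2.66), which in turn overlapped PFKL (17.9 ± 2.46). PFKM (10.2 ± 2.26), HK2 (10 ± 1.26) and PFKFB3 (7.57 ± 3.17) formed an overlapping run, and PFKFB3 also overlapped PFKFB4 (3.87 ± 0.567). PFKFB2, HKDC1 and TIGAR came last at 1.95, 1.89 and 1.51 RPKM, each overlapping its neighbour. Control CCL218 had the same order, with PFKP at 24.9 ± 2.75 (23.2 to 28.1), HK1 at 22.0 ± 5.13 (16.1 to 25.2, overlapping PFKP), PFKL at 18.4 ± 2.52 and PFKFB4 at 2.65 ± 0.406 RPKM.

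After evolution, PFKFB3 and PFKFB4 both had higher mean RPKM than PFKM in each line. In HCQ-evolved OVCAR3, PFKP reached 63.4 ± 14.9 RPKM and PFKL 31.9 ± 1.99, followed by HK1 (27.6 ± 4.70), PFKFB3 (18.8 ± 3.14), HK2 (18.2 ± 5.73), PFKFB4 (13.5 ± 0.432) and PFKM (11.5 ± 0.598). In HCQ-evolved CCL218, PFKFB3 reached 28.4 ± 1.44 RPKM and overlapped HK1 at 28.8 ± 1.12. PFKFB4 at 12.4 ± 1.06 overlapped PFKM at 11.4 ± 0.589 there, so that their order is not resolved. The order depends on the length used. Merged exons of PFKL span 8926 bases against 2907 in its MANE Select transcript, and with MANE lengths PFKL (54.9 RPKM in control OVCAR3) came before HK1 (39.0). In evolved OVCAR3, PFKM (27.0 ± 1.40 RPKM) then had a higher mean than PFKFB3 (25.6 ± 4.28) and PFKFB4 (23.6 ± 0.753). Pools of PFKM and PFKFB3 overlapped there, so that their order is not resolved. In evolved CCL218, PFKFB3 (38.7 RPKM) was ahead of PFKM (26.7) with MANE lengths too, while PFKFB4 (21.7) was not.

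Changes of isozyme shares within each family were tested next. Hexokinases share a reaction, and so do phosphofructokinases, but PFKFB enzymes differ in their bias towards the kinase reaction, as given above. PFKFB shares, and the sums of that family below, thus describe RNA levels and not the capacity for a single reaction. A share is a gene's part of the summed RPKM of the 3 genes of its family in a pool. Differences were tested with an exact two-sided permutation test, which cannot go below 0.1 in one line (3 pools against 3) or 0.005 over both lines with labels permuted within each line. Over both lines, 9 shares were tested, and adjusted p-values are Benjamini-Hochberg values over these 9. Shares of a family sum to 100%, so they are not independent. The test over both lines also treats the lines as independent. Control pools of the same position deviated together across genes in both lines (correlations of 0.863, 0.827 and 0.25 for L, M and R). The p-values over both lines thus rest on an independence that was not shown.

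Among hexokinases, the mean share of HK2 rose and that of HK1 fell. The HK2 share was 33.6, 30.7 and 28.7% in control and 36.6, 36.7 and 42.8% in HCQ-evolved OVCAR3, and it was 31.5, 30.4 and 27.0% and 38.2, 38.6 and 36.1% in CCL218. Evolved pools were above control pools in both lines (exact p over both lines = 0.005, the smallest it can give, adjusted p = 0.0112). HK1 went from 63.2 ± 2.01 to 60.0 ± 2.59% in OVCAR3 and from 65.0 ± 2.62 to 57.3 ± 1.43% in CCL218 (exact p = 0.0100, adjusted 0.0150, SD, n = 3). Its pools overlapped in OVCAR3, with control pool L at 61.4% and HCQ-evolved pool M at 61.8% (exact p in that line 0.200). Without HCQ-evolved pool R the HK1 difference in OVCAR3 went from -3.20 to -1.72 percentage points. HKDC1 went from 5.80 ± 0.702 to 1.29 ± 1.05% in OVCAR3 but from 5.41 ± 0.605 to 5.09 ± 0.679% in CCL218 (exact p = 0.03, adjusted 0.0386), where the pools overlapped. With MANE lengths the HK2 share was lower throughout, at 20.4 and 26.0% in OVCAR3 and 19.3 and 25.5% in CCL218.

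Among phosphofructokinases, the share of PFKP rose and that of PFKM fell. PFKP was at 51.1 ± 3.65% in control and 58.9 ± 6.02% in evolved OVCAR3, and at 46.2 ± 3.50 and 58.1 ± 1.27% in CCL218. PFKM was at 17.7 ± 1.72 and 10.9 ± 1.72% in OVCAR3 and at 19.8 ± 2.43 and 10.8 ± 0.453% in CCL218. For both genes the pools did not overlap in either line (exact p = 0.005, adjusted 0.0112 each). The PFKP difference in OVCAR3 of 7.78 percentage points became 4.35 without HCQ-evolved pool R. The PFKL share, 31.2 ± 2.61 to 30.2 ± 4.60% and 33.9 ± 1.34 to 31.1 ± 1.72%, did not pass (exact p = 0.280, adjusted 0.315).

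Among PFKFB enzymes, PFKFB2 went from 20.4, 12.2 and 13.5% to 4.56, 4.43 and 4.34% in OVCAR3. In CCL218 it went from 18.5, 14.7 and 16.4% to 4.29, 4.61 and 5.45% (exact p over both lines = 0.005, adjusted 0.0112). The CPM of PFKFB2 itself was not called in either line. PFKFB4 went from 29.7 ± 4.35 to 40.3 ± 3.39% in OVCAR3 and from 21.9 ± 5.78 to 29.0 ± 1.07% in CCL218 (exact p = 0.0100, adjusted 0.0150). Its pools overlapped in CCL218, with control pool L at 28.5% and HCQ-evolved pool R at 27.9% (exact p in that line 0.200). PFKFB3 held the highest share in every group, 54.9 ± 8.70 to 55.3 ± 3.48% and 61.6 ± 7.55 to 66.2 ± 0.481% (exact p = 0.470, adjusted 0.470).

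**Figure D3:**
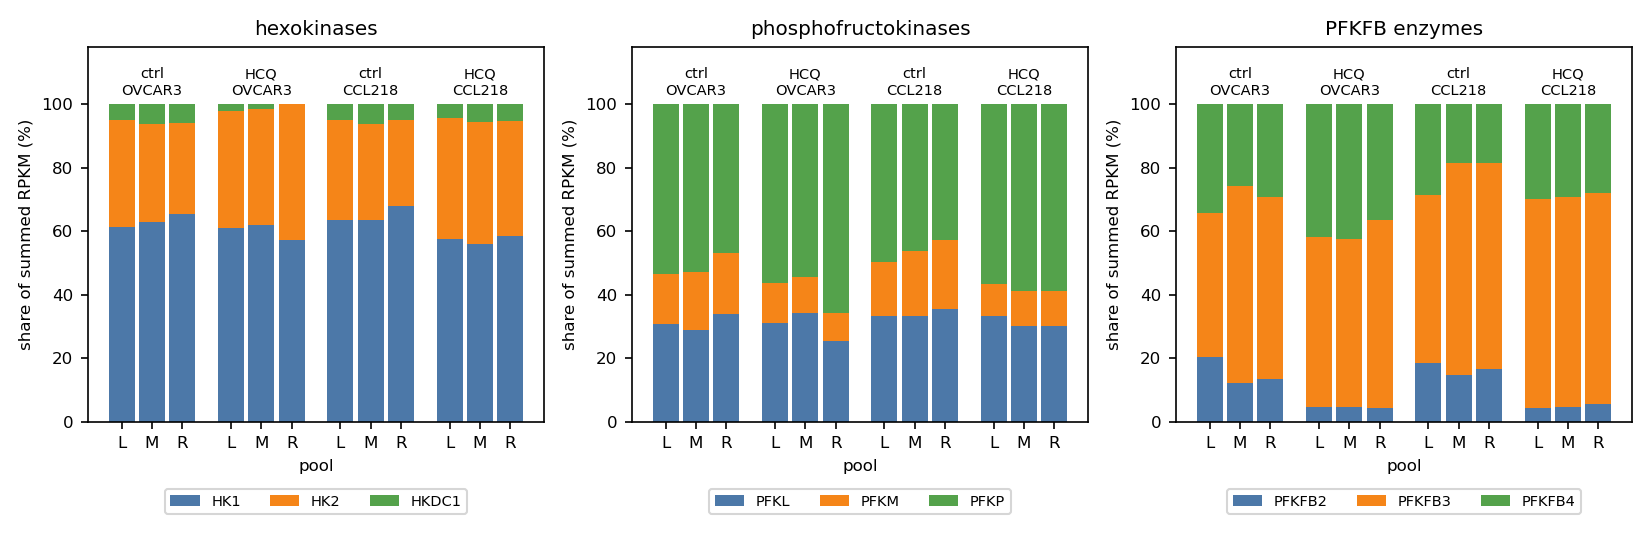
Share of each gene in the summed RPKM of its family (%, y axis) in each of the 12 pools, with hexokinases, phosphofructokinases and PFKFB enzymes in separate panels. PFKFB2 falls to 4.29 to 5.45% in the 6 HCQ-evolved pools from 12.2 to 20.4% in the 6 control pools, and HKDC1 is nearly gone from HCQ-evolved OVCAR3 pool R (0.159%).

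Summed over each family, the evolved pools were above the controls in all 3 families and both lines. Mean sums of hexokinases were 32.3 ± 4.06 and 46.3 ± 10 RPKM in OVCAR3 and 33.8 ± 7.39 and 50.2 ± 2.18 RPKM in CCL218, ratios of 1.43 and 1.48. Those of phosphofructokinases had ratios of 1.86 and 1.94, and those of PFKFB enzymes had ratios of 2.52 and 3.32, from 13.4 ± 3.8 to 33.8 ± 3.48 RPKM and from 12.9 ± 4.52 to 42.9 ± 2.35 RPKM. In each line the ratio was highest for PFKFB enzymes and lowest for hexokinases.

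Other genes of the pathway were read from the same fits. Of 12 genes around the first steps, 6 were tested, with medians of 0.052 in OVCAR3 and -0.31 in CCL218. By edgeR, 0 of 6 were called in OVCAR3 (0.647% of all genes higher and 1.21% lower), and 1 was called higher in CCL218 (3.82%). This was GPI, which interconverts glucose and fructose 6-phosphates, at 647 ± 80.9 CPM in control and 1424 ± 111 CPM in evolved CCL218 (log2 fold change 1.11, adjusted p = 0.00891). In OVCAR3 its log2 fold change was 0.90 (adjusted p = 0.0708). At an unadjusted p under 0.05 there were 2 of these genes in OVCAR3 (8.38% of all genes higher and 7.87% lower), and DESeq2 called 2 (4.44% and 4.61%). In CCL218 there were also 2 at an unadjusted p under 0.05 (12.5% higher and 12.7% lower). FBP1, the gluconeogenic enzyme that reverses the phosphofructokinase step, had log2 fold changes of -0.92 and -0.68 (adjusted p = 0.165 and 0.115), with all evolved pools below the controls in both lines; it was singled out after its values were seen.

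Of 17 lower glycolysis genes, 13 were tested, with 2 called higher in OVCAR3 (0.647% of all genes), 7 called higher in CCL218 (3.82%) and 0 called lower. The count in OVCAR3 was 1 with plate position as a block (0.139% of all genes higher). It was 9 with DESeq2 (4.44%) or one fit of 12 libraries (4.42%). Their medians were 0.84 and 0.69. The highest log2 fold changes among those called in CCL218 were ENO2 (2.23), ALDOC (2.16) and PGK1 (1.70), and the lowest were PKM (0.68), TPI1 (0.69) and LDHA (0.94). In OVCAR3, ENO2 (1.81) and ALDOC (1.48) were called. Of 15 genes that branch from hexose phosphates, 13 were tested, with medians of 0.12 and -0.077. GBE1, the glycogen branching enzyme, was called higher in OVCAR3 (1.74, adjusted p = 0.0218) and CCL218 (1.53, adjusted p = 0.00596), and UGP2, which makes UDP-glucose, in CCL218 (0.54, adjusted p = 0.0422). Called higher were thus 1 of 13 in OVCAR3 (0.647% of all genes) and 2 of 13 in CCL218 (3.82%), with 0 called lower.

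Of 14 known regulators and partners, 12 were tested, with medians of 0.041 and 0.069. TXNIP, which restrains glucose uptake, was the 1 gene called in CCL218 (log2 fold change 1.48, adjusted p = 0.00596), against 3.82% of all genes called higher. There, 2 had an unadjusted p under 0.05 (12.5% of all genes higher and 12.7% lower). In OVCAR3, 0 were called (0.647% of all genes higher and 1.21% lower). There, 3 had an unadjusted p under 0.05 (8.38% of all genes higher and 7.87% lower) and DESeq2 called 1 (4.44% and 4.61%). The family members HK3 (0 to 10 counts per library) and PFKFB1 (4 to 17) did not pass the filter and were not tested, and the same held for FBP2 (1 to 12) and PPARGC1A (0 to 30). PGK2 and TKTL1 had at most 2 counts, and G6PC2, PGAM2 and PKLR had 0 counts in every library. G6PC1 was not analysed here.

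**Figure D4:**
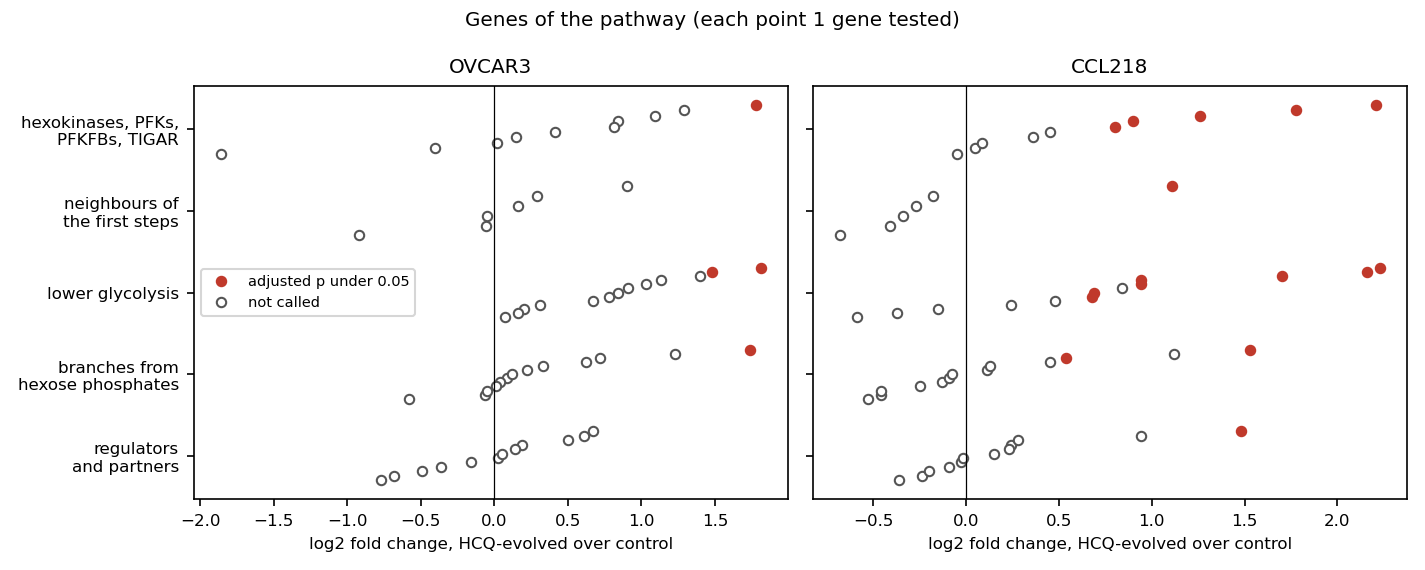
Log2 fold change of every tested gene of the 10 and of 4 pathway lists in OVCAR3 (left) and CCL218 (right), 1 point per gene, red where the adjusted p of edgeR was under 0.05. Called genes lie to the right of 0 in both panels, and lower glycolysis holds 7 of them in CCL218.

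The genes most like each of the 5 called genes were found by Pearson's r of log2(CPM + 1) over the 12 libraries, among 11944 genes tested in both lines. These values describe libraries that share groups, plates and depth, and carry no p. PFKFB4 was most like QSOX1 (r = 0.997), BNIP3L (0.988) and NCKIPSD (0.982). PFKFB3 was most like FZD7 (0.992), SLC35A3 (0.985) and GALNT3 (0.985), and PFKP was most like SEMA4B (0.983), IL1RN (0.981) and NCKIPSD (0.981). PFKL was most like PGK1, OTUD1 and P4HA1 (0.981 each), and CLSTN1 (0.980) and RBPJ (0.978) were among the genes most like HK2. Within the 10 genes, PFKFB4 had an r of 0.970 with PFKP and 0.956 with PFKL, but -0.331 with HKDC1, -0.338 with PFKFB2 and 0.326 with TIGAR.

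The count in OVCAR3 depended on the analysis. HK2, PFKL, PFKP, PFKFB3 and PFKFB4, the genes called in CCL218, were also those called higher in OVCAR3 by DESeq2 (4.44% of all genes higher), with one fit of 12 libraries (4.42%) and with the trend in length and GC content removed (3.92%). DESeq2 also called HKDC1 lower (4.61% of all genes lower). The same 6 genes were called without control pool M and HCQ-evolved pool R, whose length trends stood apart (3.20% higher and 2.98% lower). With plate position as a block, PFKFB4 was called alone in OVCAR3 (0.139%), and without control pool L or without control pool R, 0 were called. In CCL218 the same 5 genes were called by DESeq2 (9.02%), with the trend removed (8.52%), with one fit (2.86%), with the block (7.82%) and without both pools L, left out for the same reason (15.6%). Leaving out control pool R or any one HCQ-evolved pool left 2 called there, PFKFB4 and PFKP. Shares of all genes called with one pool left out are not reported here.

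**Figure D5:**
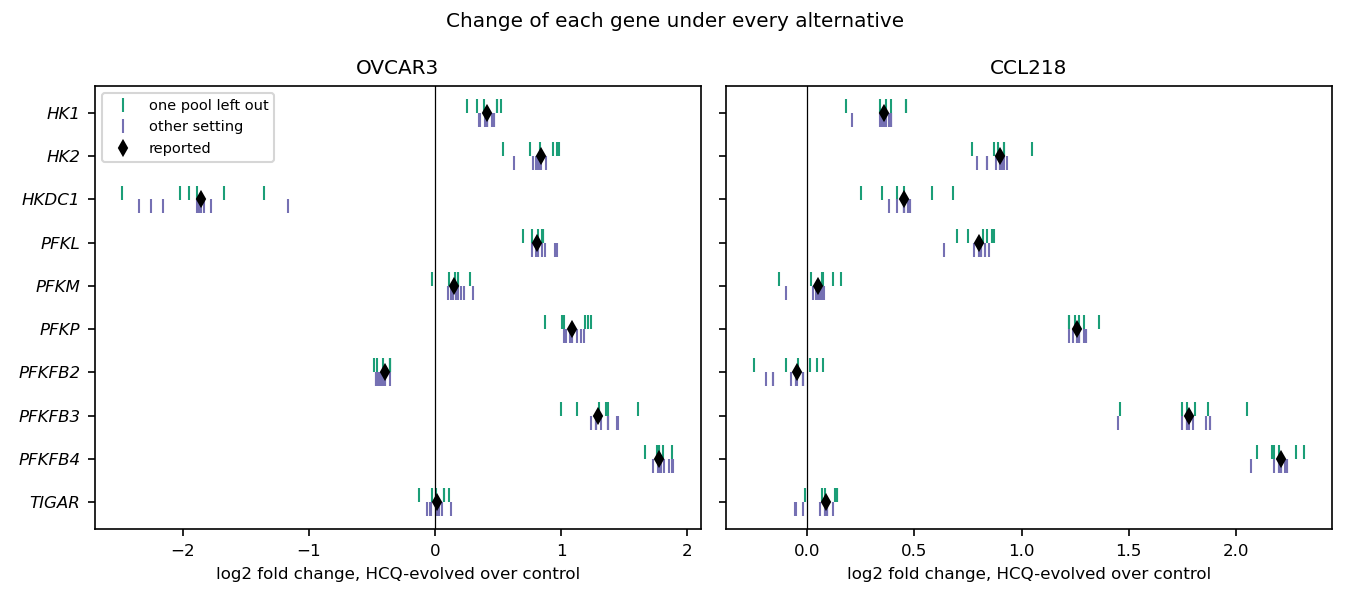
Log2 fold change of each gene in OVCAR3 (left) and CCL218 (right) as reported (black diamond), with one pool left out (green ticks) and under each other setting (violet ticks). PFKFB4 stays within 1.67 to 1.89 in OVCAR3 and within 2.07 to 2.32 in CCL218, and TIGAR and PFKM lie on both sides of 0 when a pool is left out, as does PFKFB2 in CCL218.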

How the data were processed

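Cells were pooled by plate position, polyA RNA was extracted and each of the 12 pools gave 1 library. Per the submitters' processing notes and the study's methods, the authors aligned reads to hg38 with STAR, removed duplicates with RmDup and counted reads per gene with featureCounts. The strand setting is not given in the sources used here. The deposited values are raw counts for 28278 symbols, with 31147822 to 59965861 counts per library. Of 29816 entries of 1 to 4 counts, 78.9% were even, so no counting interval is given. Whether the mates of a read pair were counted separately is not given in the sources used here, and 1 count need not be 1 fragment.

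The 10 genes, the pathway lists and the markers were chosen with earlier results of these data known. Each line was fitted alone in edgeR 4.0.16 (TMM, robust quasi-likelihood F test) under R 4.3.3, after keeping genes that reached 1 CPM in 3 or more libraries, with Benjamini-Hochberg adjustment over all genes tested and a threshold of 0.05. All 12 libraries entered the fit whose interaction term compared the lines. Named were all 10 genes, list members called in either line (for long lists the 3 highest and 3 lowest), family members under the filter with their counts, and the 3 genes most like each called gene. A few genes that this rule names are not reported here. Length and coordinates came from GENCODE 44 on hg38 (25763 of 28278 symbols, 91.1%), and promoters from RefSeq on GRCh38.p14.

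Alternatives were other scalings, no filter, DESeq2 1.42.0, limma voom (limma 3.58.1), one fit of all libraries, a block for plate position, removal of length and GC trends by a spline per library, and each pool left out. The reported edgeR fit, DESeq2, limma voom and the fit with a block for plate position were tested on simulated counts. The other fit settings were not. Simulated counts had the same dispersion for all genes, with no length trend and no shared deviation by position. They therefore do not show how the fits handle these features of the real pools. After group means were removed, same-position pools of control and HCQ-evolved CCL218 correlated across genes at 0.541 (L), 0.265 (M) and 0.226 (R). Those of the control plates of both lines correlated at 0.863, 0.827 and 0.25. Position was not always the closest match, since control CCL218 pool M correlated at 0.474 with HCQ-evolved pool R. The reported fits and the permutation tests of shares did not pair pools by position. A fit with position as a block is given as an alternative. Protein sequences were not analysed here.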

Additional observations from a re-analysis of the deposited data

How the results depend on the processing

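In CCL218, the count of called genes was 5 under every alternative that kept all pools, for the same 5 genes, and 2 to 5 with one pool left out. In OVCAR3 the count of 1 became 3 with no filter on low counts, 6 with DESeq2, 5 with one fit of 12 libraries, 5 with the length and GC trend removed, and 0 to 4 with one pool left out (4 without HCQ-evolved pool R, 0 without control pool L or R). With control pool M and HCQ-evolved pool R both left out, chosen after seeing the data because their length trends stood apart, it was 6. A replicate block for plate position left the OVCAR3 count at 1 and the CCL218 count at 5 for the same genes, and the block with the trend removed gave 2 in OVCAR3. In OVCAR3 the position numbers did not pair the pools (correlations of 0.417, -0.687 and -0.494). Between control lines the count of 0 became 1 with the replicate block and 2 with the block and the trend removed. The interaction stayed at 0 in each alternative.

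Of 395 alternative fold changes of single genes, 340 kept direction and side of the threshold, 14 lost their call, 26 gained one and 15 changed sign. The sign changes were in genes near 0. TIGAR in OVCAR3 was -0.028 with upper quartile scaling, -0.041 with the trend removed, -0.064 with the block and the trend removed, and -0.13 to 0.11 with one pool left out. TIGAR in CCL218 was -0.054, -0.057 with the block as well, -0.019 without both pools L (left out for their length trends, chosen after seeing the data), and -0.0099 to 0.14 with one pool left out. PFKM was -0.024 to 0.28 in OVCAR3 and -0.13 to 0.16 in CCL218 with one pool left out, and -0.10 without both pools L. PFKFB2 in CCL218 was -0.25 to 0.075. Of 144 alternative share differences, 7 changed sign: HKDC1 in CCL218 (-0.601 to 0.0552), PFKL in OVCAR3 (-3.04 to 1.5) and PFKFB3 in OVCAR3 (-4.44 to 4, each with one pool left out, in percentage points), the last also at -0.776 with MANE lengths. Of 80 alternative counts of called genes in the pathway lists, 46 stayed within 1.5 times and 34 did not, and lower glycolysis in OVCAR3 ran from 1 to 9. The causes were not tested. With 3 pools per group, losing 1 leaves fewer samples for the same test.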
